A study of Sus scrofa with 12 samples.

Results

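Genes that mark the types of endothelial cell, arterial, venous, endocardial and capillary, were examined in heart muscle of 6 pigs. The members were 10 genes chosen by name: GJA4, GJA5, EFNB2 and SEMA3G as arterial, EPHB4, NR2F2, ACKR1 and SELP as venous, NPR3 as endocardial and CA4 as capillary genes. All 10 had a pig gene identifier among the 35682 genes counted. RNA was sequenced from 1 border zone and 1 remote zone sample of each animal, taken midway along the left ventricle. Young female Yorkshire pigs had a balloon occlusion of the left anterior descending coronary artery (LAD) for 60 min, followed by reperfusion. All received 3 immunosuppressants from day 9, prednisolone at 20 mg/day, mycophenolate mofetil at 500 mg/day and tacrolimus at 0.75 mg/kg/day, and on day 14 a left thoracotomy with either sheets of human endothelial progenitor and smooth muscle cells (vascular organoids) held by fibrin glue, or the glue alone. Hearts were taken after a further follow-up. Muscle bordering the infarct gave the border zone samples, and the posterior side gave the remote zone samples. The extraction text of all 12 samples names the border zone, so the zone was read from the sample titles. Which animals carried organoids was not used here, so each zone holds animals of both arms, every difference below is between zones, and effects of the treatment cannot be told apart within it. Strain and drugs were shared by all animals. Their age is known only as a range shared by all animals.

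The lining of blood vessels differs by position. Arterial cells carry the gap junction proteins connexin 37 (GJA4) and connexin 40 (GJA5) and the membrane ligand ephrin-B2 (EFNB2), while venous cells carry its receptor EPHB4 and the nuclear receptor NR2F2, which holds down arterial genes. In the smallest veins, ACKR1 binds chemokines and SELP (P-selectin) catches rolling leukocytes, so both serve the entry of white cells into tissue. NPR3, a clearance receptor for natriuretic peptides, marks the endocardium that lines the chambers, and CA4, a membrane-bound carbonic anhydrase, marks capillaries. None of these genes is limited to endothelium: SELP is stored in platelets, ACKR1 is on red cells, GJA5 is in atrial and conduction muscle, GJA4 and EFNB2 are in mural cells, and NR2F2 and NPR3 are in several stromal cells.

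Border zone libraries held 15130210 to 30526110 counts and remote zone libraries 20091415 to 31618680. The border zone library of animal 3622 was the shallowest and listed counts on 28024 genes, more than the 17563 to 20148 of the other 5. The border zone library of animal 1022 had a summed level of 8 fibroblast and matrix genes of 66593 CPM (counts scaled to library size, with TMM factors), against 3011 to 11316 in the other 5 of that zone and 1025 to 2562 in remote zone libraries. Values without each of these 2 libraries are given where they change a call. Of 13844 genes tested, 287 had an adjusted p under 0.05 by edgeR's quasi-likelihood test, which is 2.07%, nearly all of them higher in the border zone (2.06% higher and 0.0144% lower). With the animal as a block, the share was 0.296% (0.289% higher and 0.00722% lower). Nothing in the labels says that samples of a zone are other than 1 per animal, so the spread is that between animals.

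All 10 members passed the filter on low counts and were tested. SELP and ACKR1 were higher in the border zone, and the other 8 did not pass the threshold in either direction. With the animal as a block, 0 of the 10 passed in edgeR (5 had an unadjusted p under 0.05, as did 29.4% of all genes tested), while the Wald test of DESeq2, which called 10.2% of genes (8.42% higher and 1.83% lower), called 2. The median log2 fold change of the 10 was 0.35, beside 0.04 over all genes tested.

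**Figure D1:**
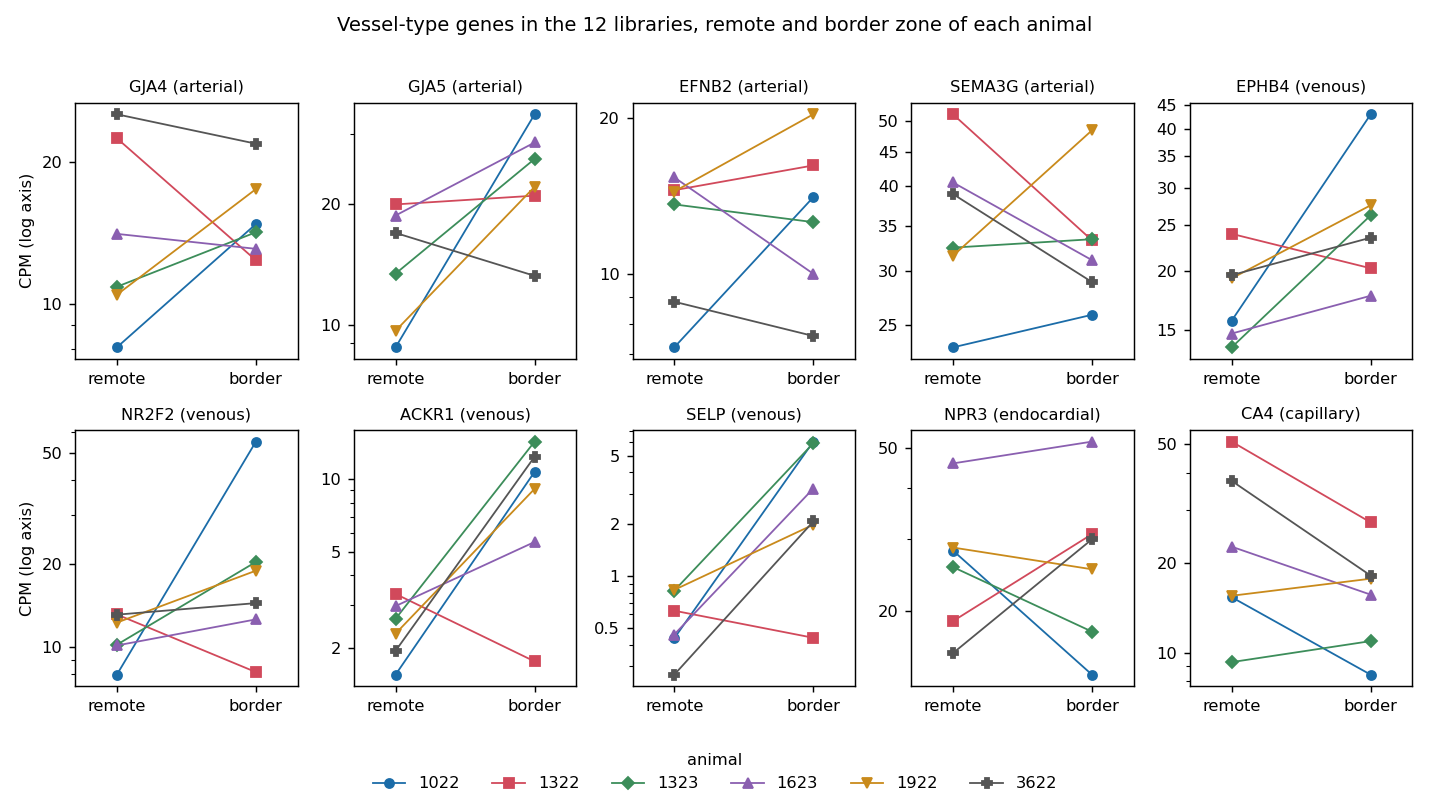
TMM-scaled CPM (log axis) of the 10 genes in the remote and border zone library of each of 6 animals, joined by a line per animal. SELP and ACKR1 lines climb in all animals but 1322, while those of GJA4, EFNB2, SEMA3G and NPR3 run both ways.

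SELP, the leukocyte-catching selectin, lies on chromosome 4 (81376804 to 81401240, plus strand, Sscrofa11.1 by RefSeq). Its level in the border zone was 6.05 CPM in animal 1022, 5.92 in 1323, 3.23 in 1623, 2.08 in 3622, 1.99 in 1922 and 0.438 in 1322. In the remote zone it was between 0.267 and 0.832 CPM, with a median of 0.544. The 5 higher border zone libraries stood above every remote zone library, and that of animal 1322 lay within the remote range. The counts behind these levels were 9 to 201 reads in border zone and 4 to 25 in remote zone libraries, so the remote level is a low one and its counting error is large. The log2 fold change was 2.50 (standard error 0.54, adjusted p = 0.0338 by edgeR), a 5.66-fold higher level. With the animal as a block it was 2.27 (standard error 0.55, adjusted p = 0.0798).

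ACKR1, the chemokine-binding protein of venules, lies on the same chromosome (91224089 to 91225610, minus strand). It was at 14.3 CPM in the border zone of animal 1323, 12.4 in 3622, 10.7 in 1022, 9.13 in 1922, 5.49 in 1623 and 1.75 in 1322. The remote zone ran from 1.54 to 3.34 CPM, with a median of 2.46. As for SELP, the libraries of 5 animals stood above all of the remote zone and the border zone of animal 1322 did not. The log2 fold change was 1.87 (standard error 0.40, adjusted p = 0.0338 by edgeR), or 3.65-fold. With the block it was 1.71 (standard error 0.49, adjusted p = 0.0879). Both genes were higher in 5 of 6 animals, as were at least 5 of 6 for 28.8% of all genes tested. In exact permutation of the sign of the within-animal differences, two-sided, p was 0.0625 for SELP and 0.09375 for ACKR1 (0.181 and 0.228 after adjustment over all genes tested), where 0.03125 is the smallest that 6 animals allow. A gene at that smallest p had an adjusted p of 0.137, so no gene could pass in this test. With both libraries of an animal left out in turn, the log2 fold changes stayed between 2.16 and 2.75 for SELP and between 1.66 and 2.18 for ACKR1, but the adjusted p of edgeR was under 0.05 only without animal 1322 (0.0232 and 0.0133, with 3.72% of all genes past the threshold) and otherwise between 0.0825 and 0.134 for SELP and between 0.0972 and 0.156 for ACKR1. In those other sets of 5 animals, the share of all genes past the threshold was 1.18% without animal 1022, 0.0218% without 1323, 0.107% without 1922 and 0.0% without 1623 or 3622. Without the border zone library of animal 1022 alone, the adjusted p of edgeR was 0.0428 for SELP and 0.0403 for ACKR1 (2.2% of genes past), and without that of animal 3622 it was 0.0478 and 0.0583 (1.12%).

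Since SELP had the largest fold change of the 10, the 250 bases before its RefSeq start are shown, on the gene's strand and 5′ to 3′, from chr4:81376554-81376803.
SELP: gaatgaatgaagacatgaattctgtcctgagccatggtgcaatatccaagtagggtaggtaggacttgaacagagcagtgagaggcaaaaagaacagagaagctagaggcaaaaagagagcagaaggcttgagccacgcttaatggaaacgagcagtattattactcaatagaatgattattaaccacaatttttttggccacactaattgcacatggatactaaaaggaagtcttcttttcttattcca
The window was searched on both strands for 4 motifs, AGATAA of GATA factors, CCGGAA of ETS factors, ACAAAG of SOX factors and TGGGAA of RBPJ, which do not contain one another. It held none of the 4, so no base is in capitals. Of 19556 such windows before protein-coding genes, 24.6% held the RBPJ, 8.08% the GATA, 13.6% the ETS and 12.1% the SOX letters. G and C made up 39.6% of the SELP window. These values describe the letters only.

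NR2F2, the transcription factor of venous identity (chromosome 7, 83076119 to 83090250), was at 55.2 CPM in the border zone of animal 1022, against 8.13 to 20.3 in the border zone of the others and 7.96 to 13.1 in the remote zone. It was higher in 5 of 6 animals, but 1 library held the extreme. The log2 fold change of 0.96 (standard error 0.38) did not pass, with an adjusted p = 0.146 by edgeR and 0.277 with the block, and it was 0.34 without animal 1022. RefSeq places an opposite-strand gene over 329 of its 4214 exon bases, and these nondirectional libraries cannot part such reads.

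EPHB4, the receptor of ephrin-B2 (chromosome 3, 8671052 to 8689778), had a border zone range of 17.7 to 43.0 CPM with a median of 24.9, and a remote range of 13.8 to 24.0 with a median of 17.5. The zones overlapped, with 3 border zone libraries above all of the remote zone. Its log2 fold change was 0.57 (standard error 0.22, adjusted p = 0.14 by edgeR, and 0.143 with the block). Without animal 1022 the log2 fold change was 0.33. It was higher in 5 of 6 animals, and again animal 1322 was the exception.

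**Figure D2:**
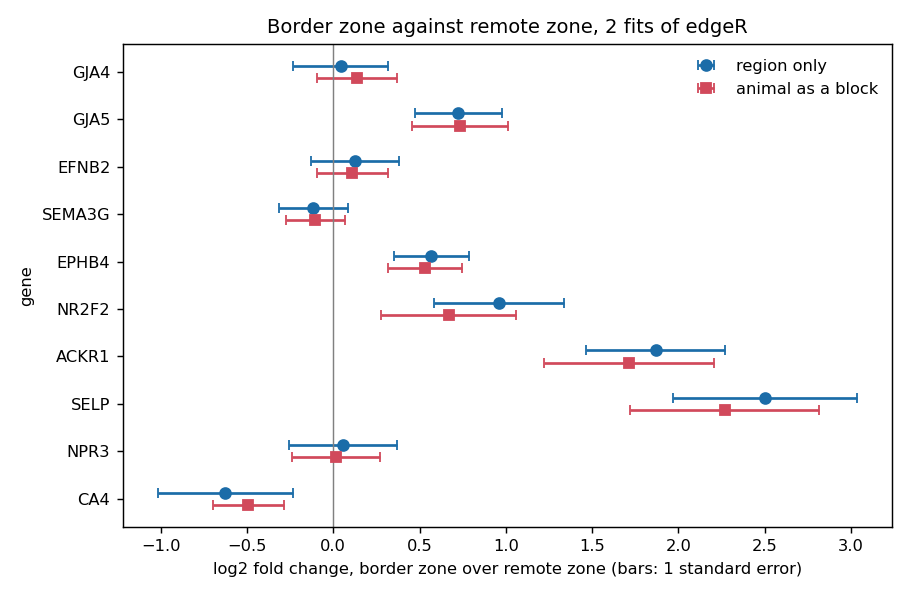
Log2 fold change of border zone over remote zone for the 10 genes, with bars of 1 standard error, by edgeR with region as the only term (circles) and with the animal as a block (squares). SELP (2.50) and ACKR1 (1.87) lie farthest above 0 and CA4 (-0.63) lies below it.

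Among the arterial genes, the connexin GJA5 (chromosome 4, 99854129 to 99871288) differed most. It had 33.6 CPM in the border zone of animal 1022, 28.6 in 1623, 26.0 in 1323, 22.1 in 1922, 21.0 in 1322 and 13.3 in 3622. The remote zone was between 8.79 and 20.0 CPM, so that 5 of the 6 border zone libraries lay above it and animal 3622 went the other way. The log2 fold change was 0.72 (standard error 0.25), with an adjusted p = 0.116 by edgeR that missed the threshold, as it did with the block (0.133). Scaled by library totals without TMM, both GJA5 (1.06) and EPHB4 (0.91) passed, with adjusted p of 0.0327 and 0.0345 by edgeR, in a setting where the median of all genes shifted from 0.04 to 0.32.

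The other connexin, GJA4 (chromosome 6, 91045430 to 91048161), had 12.4 to 21.9 CPM in border zone and 8.08 to 25.3 in remote zone libraries, with medians of 14.5 and 12.5. Its log2 fold change was 0.04 (standard error 0.27, adjusted p = 0.942 by edgeR), and the sign of so small a value changed with the scaling. EFNB2 (chromosome 11, 74188337 to 74232768) had 7.58 to 20.3 CPM next to the infarct and 7.21 to 15.3 CPM far from it. Its log2 fold change was 0.13 (adjusted p = 0.794 by edgeR, standard error 0.25). The secreted guidance factor SEMA3G (chromosome 13, 34574014 to 34585686) had border zone levels of 25.9 to 48.4 CPM and remote zone levels of 23.2 to 51.1 CPM. The log2 fold change was -0.12 (adjusted p = 0.757 by edgeR, standard error 0.20), and 0.18 with library totals. Each of these 3 was higher in 3 of 6 animals, and the zones overlapped throughout.

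CA4, the capillary carbonic anhydrase (chromosome 12, 37962951 to 37972443), had 50.9 and 37.6 CPM in the remote zone of animals 1322 and 3622 and 9.28 to 22.6 in that of the other 4. In the border zone it was 8.43 to 27.3 CPM, with a median of 16.6 beside 19.1 in the remote zone. In 4 of 6 animals the border zone level was the lower one, and the median within-animal difference in log2 CPM over all 6 was -0.69. The log2 fold change of -0.63 (standard error 0.39) did not pass (adjusted p = 0.333 by edgeR, and 0.155 with the block, where it was -0.49 with a standard error of 0.21). The 2 remote zone libraries with the most CA4 also had the highest shares of mitochondrial counts among the remote zone libraries, 21.4% and 33.5% against 13.6% to 14.7%, and their part in the result was not tested.

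NPR3 (chromosome 16, 18841540 to 18929813), the endocardial member, had 14.0 to 51.9 CPM in border zone and 15.8 to 45.9 in remote zone libraries, with medians of 27.6 and 26.9. Its log2 fold change was 0.06 (standard error 0.31, adjusted p = 0.929 by edgeR). Animal 1623 had the highest level in both zones. The others went opposite ways, from 0.499-fold in animal 1022 to 1.89-fold in animal 3622. An opposite-strand RNA gene covers 6071 of the 8207 exon bases of NPR3 in RefSeq, so these reads cannot be assigned to NPR3 alone.

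Levels of different genes were compared as CPM per kb of RefSeq exon length. In the remote zone, CA4 had the highest median, 16.6 per kb, followed by EFNB2 with 14.0, GJA4 with 7.86, SEMA3G with 7.24, GJA5 with 4.04, EPHB4 with 3.95, NPR3 with 3.27, NR2F2 with 2.67, ACKR1 with 2.22 and SELP with 0.207. All neighbours in this order overlapped in range except the last pair, where SELP reached 0.316 and ACKR1 began at 1.39 per kb. In the border zone, ACKR1 had the fourth highest median, 8.97 per kb, next to GJA4 with 9.12, while SELP stayed last with 1.01. The RefSeq model of EFNB2 holds 1002 exon bases, all coding, while reads were counted on Ensembl genes. Its level per kb may therefore be set too high against genes whose models include untranslated parts, which was not tested.

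In bulk tissue, fewer cells of a type and less RNA per cell cannot be told apart, so each member was also set against 14 genes that all endothelial cells share (PECAM1, CDH5 and others), as log2 CPM minus the mean of the 14 in the same library. The mean of the 14 itself went up in 3 animals and down in 3, and the median of its border minus remote differences was 0.10. Against it, SELP was higher in 6 of 6 animals, by a median of 2.47 (0.10 to 2.84), and EPHB4 in 6 of 6, by 0.48 (0.11 to 0.52). CA4 was lower in 6 of 6, by a median difference of -0.34 (-1.80 to -0.18). Of all genes tested, 9.15% were higher and 3.53% lower in all 6 animals on this scale. ACKR1 was higher in 5 of 6, by a median of 1.67, and GJA5 in 5 of 6, by 0.70. NR2F2 was higher in 5 of 6, by 0.44, and SEMA3G was lower in 5 of 6, with a median difference of -0.19. GJA4 (-0.0097), EFNB2 (0.0064) and NPR3 (-0.099) had medians near 0. With PECAM1 and CDH5 alone as the reference, SELP was higher in 5 of 6 animals, EPHB4 in 6 and CA4 in 0.

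**Figure D3:**
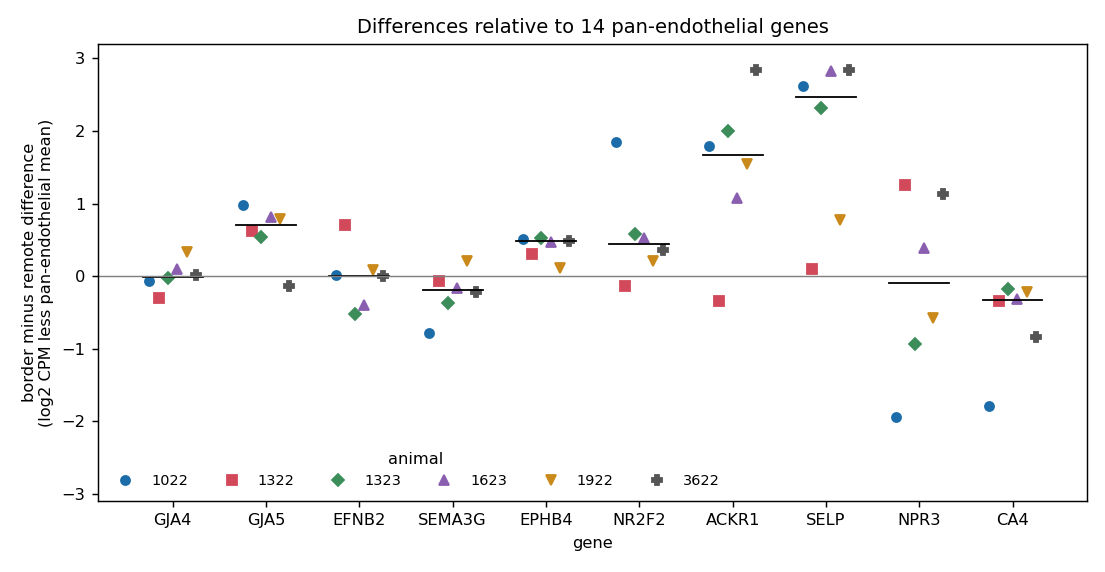
Border minus remote difference per animal (log2 scale), for each gene's log2 CPM less the mean of 14 pan-endothelial genes, with the median of the 6 animals as a black line. All 6 points of SELP and EPHB4 lie above 0 and all 6 of CA4 below it.

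Ratios of 2 genes in a library do not depend on how the library was scaled. For each CA4 read there were 0.0643 to 1.31 ACKR1 reads in border zone libraries (median 0.601) and 0.0516 to 0.284 in remote zone libraries (median 0.116). The ratio was higher in the border zone of 5 animals, by a median of 4.06-fold over all 6, and was 0.978-fold in animal 1322. For SELP reads per CA4 read, the border zone exceeded the remote zone in 6 of 6 animals, from 1.30-fold to 25.2-fold with a median of 8.16-fold, where the lowest border zone ratio, that of animal 1322, rests on 9 SELP reads. EFNB2 reads per EPHB4 read, the ligand over its receptor, were lower next to the infarct in 5 of 6 animals, 1322 being the exception, with medians of 0.521 and 0.675. GJA5 reads per GJA4 read were higher in 5 of 6 animals, with medians of 1.77 in the border zone and 1.01 in the remote zone, and the exception was animal 3622. These ratios are descriptions, and no test was made on them.

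**Figure D4:**
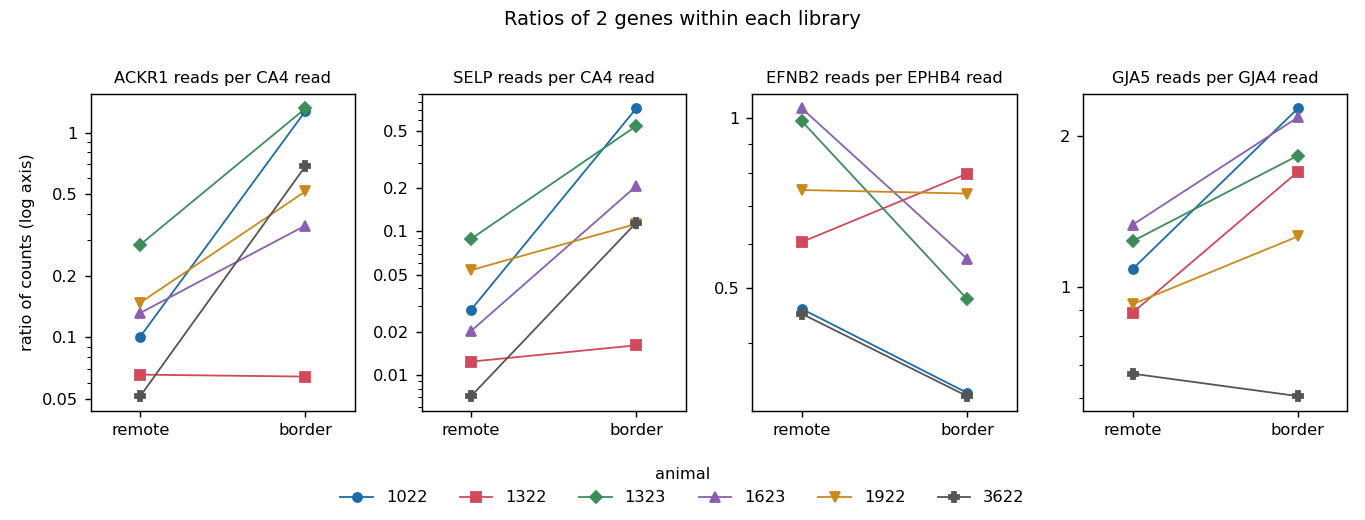
Ratios of the counts of 2 genes (log axis) in the remote and border zone library of each of 6 animals. ACKR1 per CA4 and SELP per CA4 climb in 5 and 6 animals, and EFNB2 per EPHB4 is lower in 5.

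Other genes of the same vessel classes were counted from lists of names. These were chosen with earlier results of these data known, so they give no independent support to the pattern of the members. Of all 13844 genes tested, 7385 had a log2 fold change above 0 and 287 passed. Of 8 further venous genes tested, 8 had one above 0, with a median of 1.25, and 1 passed. Their summed level in the border zone was 552.4 CPM in animal 1022 and 131.0 to 226.2 in the others, and without animal 1022 the median was 0.56, with 8 above 0 and 0 passing in edgeR. The gene that passed was IL1R1, the interleukin-1 receptor, at 7.01 to 20.9 CPM in border zone and 3.01 to 7.07 in remote zone libraries (log2 fold change 1.23, adjusted p = 0.0338 by edgeR, standard error 0.27, and 0.0841 with the block). It lost the call without any 1 animal but 1322 (0.0698 to 0.162) and without the border zone library of animal 3622 (0.0537). The part of fibroblasts in the levels of this list was not tested, and 7 of 8 fibroblast and matrix genes passed as higher in the border zone. A further pair of this list was named after their values were seen: PLVAP, a protein of the diaphragms of fenestrae and caveolae, had a log2 fold change of 1.26 and VCAM1, a leukocyte adhesion protein, had 1.09, with adjusted p of 0.0803 and 0.0866 by edgeR, 0.104 and 0.102 with the block, and 0.0234 and 0.0361 by DESeq2. Both had their highest level in the border zone of animal 1022, 208.1 CPM for PLVAP (47.9 to 86.8 in the border zone of the others) and 80.2 for VCAM1 (15.1 to 32.5). Of 8 further capillary genes, 0 passed in edgeR and 2 had a log2 fold change above 0, with a median of -0.40. The lowest were BTNL9 at -1.28 (adjusted p = 0.0795 by edgeR, and 0.0679 with the block) and the transcription factor TCF15 at -1.02 (adjusted p = 0.12 by edgeR, and 0.082 with the block). Both were lower in 6 of 6 animals, as were 11.1% of all genes tested, and the Wald test of DESeq2 called these 2 lower, with adjusted p of 0.0146 and 0.0497.

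Of 10 further arterial genes tested, 0 passed in edgeR and 0 in DESeq2, 6 were above 0 and the median was 0.11 (0.00037 without animal 1022, with 5 above 0). The Notch ligand JAG1 had 0.65 (standard error 0.22, adjusted p = 0.11 by edgeR, unadjusted p = 0.0108) and the chemokine CXCL12 had 0.56 (standard error 0.30, adjusted p = 0.257). Of 14 pan-endothelial genes, 0 passed in edgeR and 0 in DESeq2, with a median of 0.17 and a range from -0.50 for the tight junction gene CLDN5 to 0.39 for the TGF-beta co-receptor ENG. Without animal 1022, the log2 fold changes were 0.37 for JAG1, 0.18 for CXCL12 and 0.033 for ENG, and the median of the 14 pan-endothelial genes was -0.01, with 5 above 0. Of 8 endocardial genes, 5 could be tested, of which 5 were above 0 and 0 passed in edgeR, with a median of 1.37. The largest values were 3.15 for INHBA, a subunit of activin (adjusted p = 0.0853, and 0.135 with the block), and 2.45 for the cadherin CDH11 (adjusted p = 0.0581, and 0.125 with the block). In both, the border zone library of animal 1022 was the extreme, and without that animal the log2 fold changes were 1.14 and 1.12. Without that library alone, CDH11 passed at 1.20 (adjusted p = 0.0468 by edgeR) and INHBA did not (0.286). CDH11 and INHBA are also made by activated fibroblasts, and 7 of 8 fibroblast and matrix genes passed, all higher in the border zone (1 of 8 with the block). Of the 8 endocardial genes listed, 5 had an adjusted p in DESeq2, which called 3.

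**Figure D5:**
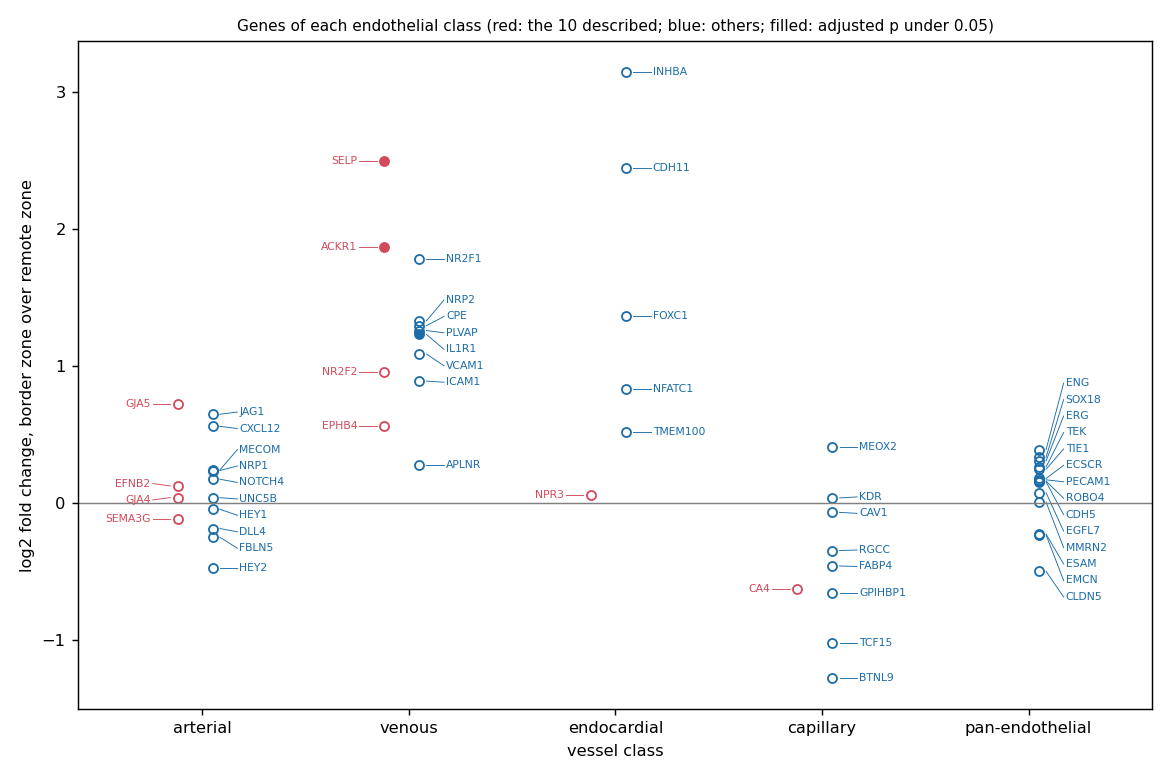
Log2 fold change of border zone over remote zone of every tested gene in 5 endothelial classes, the 10 described genes in red and others in blue, with filled points for an adjusted p under 0.05 by edgeR. Venous and endocardial genes lie above 0, pan-endothelial genes lie between -0.50 and 0.39, and most capillary genes lie below 0.

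The tissue held the defining markers of heart muscle in every library, but at a lower level in the border zone of 6 of 6 animals. The sum of 7 cardiomyocyte genes was 8015 to 48340 CPM there, with a median of 33194, against 37271 to 66227 CPM and a median of 44081 in the remote zone. All 7 had a log2 fold change under 0, with a median of -0.51 (-0.28 without animal 1022, with 1 above 0), 0 passing in edgeR and 1 in DESeq2, the troponin gene TNNI3 at -1.10 (adjusted p = 0.148 by edgeR and 0.0489 by DESeq2). Markers of other cells that carry some of the members were measured beside them. The 8 macrophage genes summed to 102.7 to 1228 CPM in border zone and 96.2 to 191.6 in remote zone libraries, 0 of 8 passing in edgeR and 4 of 7 in DESeq2, with 8 of 8 log2 fold changes above 0 and a median of 1.55 (0.62 without animal 1022). In animal 1322, the border zone library, the exception for ACKR1, SELP, NR2F2 and EPHB4, had the lowest summed level of the border zone for macrophage (102.7) and matrix genes (3011). Of 5 platelet genes, 4 were tested and 0 passed in edgeR (0 in DESeq2), their sum was 3.11 to 16.1 CPM in border zone and 2.81 to 7.35 in remote zone libraries, their median log2 fold change was 0.60 with 4 of 4 above 0 (0.29 without animal 1022, and 3 of 4 above 0 without its border zone library alone), and PPBP had at most 4 counts in any library. Of 5 red cell genes, 2 were tested and 0 passed in edgeR (0 in DESeq2), with sums of 3.41 to 14.8 and 3.01 to 24.9 CPM. Of 8 atrial and conduction genes, 5 were tested and 1 passed, SLN, with a log2 fold change of 2.36 (adjusted p = 0.0276 by edgeR). DESeq2 called 2, SLN and SHOX2, and HCN4 had libraries at 0. All 5 tested were above 0, with a median of 2.09, and the summed CPM of the 8 went up toward the infarct in 5 of 6 animals, with medians of 177.3 and 53.4 CPM. Of 9 smooth muscle and pericyte genes, 0 passed in edgeR and 3 of 8 in DESeq2 (median log2 fold change 1.08, and 0.44 without animal 1022). Of 6 lymphatic genes, 0 passed in edgeR and 1 in DESeq2, with a median of 0.37 (0.17 without animal 1022). Of 5 fat cell genes, 4 were tested, 0 passed in edgeR and 2 in DESeq2, and 3 were above 0. The summed level of the 5 was higher next to the infarct in 1 of 6 animals, with medians of 625.5 and 837.2 CPM. The lipase LPL, with medians of 608.4 and 835.4 CPM, made up nearly all of this sum and had a log2 fold change of -0.52 (adjusted p = 0.333 by edgeR), while ADIPOQ (5.37), PLIN1 (3.04) and CIDEC (1.08) were above 0. The adipokine gene ADIPOQ was at 26.8 CPM in the border zone of animal 1323 and 19.8 in that of 1922, and between 0 and 2.68 in the other 10 libraries. SLN, ADIPOQ, LPL, PLIN1, CIDEC, PPBP, HCN4, SHOX2 and TNNI3 were named after their values were seen. The part of these cells, of fibroblasts and of the lower muscle markers in the levels of the members and of the further vessel genes was not tested.

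Over the 12 libraries, which share 6 animals, the log2 CPM of ACKR1 and SELP had a Pearson r of 0.90 with each other. SELP had -0.65 with CA4, and GJA5 had 0.36 with GJA4. The genes most like SELP were SEPTIN2 (0.94), SLC41A2 (0.93) and FCER1A (0.93), and those most like ACKR1 were COL27A1 (0.93), ARAP2 (0.93) and ITGB4 (0.92). For CA4 they were NT5C3B (0.95), PAAF1 (0.94) and EIF2B2 (0.94). GJA4 was most like ISYNA1 (0.97), PPP1R14A (0.94) and ANKRD24 (0.93), GJA5 most like EPS8 (0.92), ARSJ (0.91) and DKK2 (0.91), and EFNB2 most like JCAD (0.84), FOXO1 (0.83) and EPAS1 (0.83). SEMA3G was most like APOD (0.90), MYCT1 (0.88) and FLT1 (0.88), EPHB4 most like CPT1A (0.98), HSPG2 (0.96) and RBPJ (0.95), NR2F2 most like SMOX, GNB1 and PTBP1 (each 0.98), and NPR3 most like ZSCAN23 (0.94), FBXO25 (0.87) and RBL1 (0.87). These values describe the same libraries, which also share their depth and mix of tissue.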

How the data were processed

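RNA was sequenced from 12 libraries, border and remote zone of 6 pigs, and zone and animal were taken from the titles. The authors aligned reads of poly(A), nondirectional libraries to Sscrofa11.1 with STAR and deposited raw counts per Ensembl gene made with featureCounts, whose options for shared reads are not given in the sources used here. Reads of grafted human cells were not separated. Symbols came from a table that pairs 15623 of 35682 identifiers, and positions, exon lengths and upstream windows from RefSeq on the same build.

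Counts were filtered (filterByExpr), scaled by TMM and tested by edgeR's quasi-likelihood test (robust), border zone against remote zone with region as the only term and Benjamini-Hochberg adjustment (R 4.3.3, edgeR 4.0.16, DESeq2 1.42.0, limma 3.58.1, Python 3.11.15). Standard errors are the log2 fold change over the square root of F. Log2 CPM used a prior count of 2. The fit was tested on simulated data. The members and lists were chosen with earlier results of these data known. Named genes are all members, genes of the 5 vessel lists (arterial, venous, endocardial, capillary, pan-endothelial) past the threshold, or otherwise the 2 largest changes of such a list, and the 3 genes most alike in pattern. The animal number pairs a border with a remote zone library. Deviations of the pair from the zone means correlated with r from -0.03 to 0.57, 4 of 6 over 0.1. The pairs not over 0.1 were those of animals 1022 (-0.03) and 1322 (0.07).

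Alternatives were the animal as a block, the DESeq2 Wald test, other scaling, filters and prior counts, no mitochondrial genes, each animal left out and within-animal exact permutation. Leaving out single border zone libraries of animals 1022 and 3622 was added after the data were seen. Intervals for counting error were not computed, and PCR copies were not told apart from molecules.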

Additional observations from a re-analysis of the deposited data

How the results depend on the processing

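The count of 287 genes past the threshold became 41 with the animal as a replicate block, 1719 in the DESeq2 Wald test, 1551 with library totals, 139 with no filter and 149 with at least 10 counts in every library. With each animal left out it ranged from 0 to 519, and from 0 to 856 with the block as well (856 without animal 1022, 51 without 1322). It was 0 by edgeR without animal 1623 (2662 genes at an unadjusted p under 0.05) or 3622 (2448 genes), and DESeq2 was not run on these subsets. Without the border zone library of animal 3622 alone it was 156. The cause was not tested beyond the fewer genes or samples.

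Of the 10 members, 2 passed. The number was 0 with the replicate block, 4 with library totals (SELP, ACKR1, GJA5 and EPHB4) and 1 with at least 10 counts in every library, where SELP was not among the genes tested. It ranged from 0 to 2 with each animal left out, with or without the block, being 2 only without animal 1322, and was 1 without the border zone library of animal 3622. For the other named genes the block ended the call of IL1R1 and made one for ADIPOQ (adjusted p = 0.0476 by edgeR). IL1R1 also lost its call with no filter (0.0522). In the within-animal exact permutation its adjusted p was 0.181, but there the smallest adjusted p of any gene was 0.137, so none could pass. JAG1 (0.0326), CDH11 (0.0275) and INHBA (0.0391) passed with library totals, CDH11 also without animal 1322 (0.0455) and in DESeq2 (0.0023), and BTNL9 with the block without animal 1022 (0.0234).

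Signs changed for 4 genes that never passed. GJA4 (0.04) was -0.0187 in DESeq2, -0.00928 with its size factors, -0.0140 with no filter, between -0.0852 and 0.21 with an animal left out, between -0.0153 and 0.32 with the block as well, and -0.0768 without the border zone library of animal 3622. SEMA3G was 0.18 with library totals, where the median of all genes was 0.32, beside 0.04 in the reported fit, 0.75 with no filter and 0.35 in DESeq2. EFNB2 ranged from -0.00112 to 0.28, and from -0.0606 to 0.26 with the block, and NPR3 from -0.0785 to 0.20 and, with the block, from -0.169 to 0.21 (-0.140 without animal 1322, -0.0139 without 1623). The full set of alternatives was run for the members and the genes of vessel lists named by rule, not for SLN, PLVAP, VCAM1, ADIPOQ, LPL, PLIN1, CIDEC, SHOX2 or TNNI3, and of the values 349 kept direction and side of the threshold, 39 lost the call, 11 gained it and 16 changed sign. The lost calls include those of SELP, ACKR1 and IL1R1 in the exact permutation, where no gene could pass. Values of uncalled genes in that permutation are among those kept, so these entries do not speak to stability. All 30 other prior counts and reference genes moved the members' median differences by less than 1 SD between animals. Among the members, depth limits SELP most, with 4 to 25 counts in the remote zone.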
